A study of Mus musculus with 6 samples.

Results

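The interleukin-1 family and its receptors were represented by 9 genes, Il1a, Il1b, Il1rn, Il1r1, Il1r2, Il1rap, Il18, Il33 and Il1rl1, chosen by symbol from the 32285 genes of the count matrix. Each symbol matched 1 row. Single-cell RNA-seq was performed on cerebral cortex of male RGS5::GFP het mice aged 8-12 weeks. GFP replaces one Rgs5 allele in these mice, and the middle cerebral artery had been permanently occluded. Cells of the stroke side (ipsi) and of the matching opposite cortex (contra) were taken at 1, 12 and 24 h, depleted of neurons and sorted as live cells, with 1 library for each of the 6 groups. The study's methods list fewer mice for the single-cell work than there are libraries. By that count some libraries share an animal, and the labels do not say which, so the libraries are not separate animals. Each mouse was perfused at its time point, so by the same count both sides of a time would come from the same mouse. Time could then not be told apart from animal. All groups, contra included, therefore carry the RGS5::GFP allele and come from operated animals, and no sham or naive group was analysed here. Only a number at the end of each barcode separates the 6 libraries, and no label ties such a number to a side or a time. Values are therefore given for libraries 1 to 6 by number, as a description, with no test between conditions and no p-value.

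Interleukin-1 alpha (Il1a) and interleukin-1 beta (Il1b) are ligands of the type 1 receptor (Il1r1), which signals together with the accessory protein Il1rap. The receptor antagonist (Il1rn) occupies Il1r1 without signalling, and the type 2 receptor (Il1r2) is a decoy that binds ligand and does not signal. Interleukin-18 (Il18) and interleukin-33 (Il33) are related ligands, the latter acting through Il1rl1, also called ST2, again with Il1rap. Il1b and Il18 are made as precursors that caspase-1 cuts after inflammasome assembly, whereas Il33 is a nuclear protein released from damaged cells.

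After filtering, 17357 cells were kept, between 1221 and 5873 per library, with library medians of 5053 to 5660.5 UMIs per cell (a UMI, or unique molecular identifier, counts 1 captured transcript). Of these, 52 cells carried 1 of 26 barcode sequences that occurred in more than 1 library. Clustering without the 9 genes, and naming clusters by marker genes, gave 14 classes of at least 20 cells: 8126 microglia-like, 2819 oligodendrocyte-like, 2669 endothelial-like, 1162 astrocyte-like, 889 pericyte-like, 342 neuroblast-like, 325 monocyte-derived macrophage-like, 256 smooth muscle-like, 162 neutrophil-like, 69 perivascular macrophage-like, 65 T lymphocyte-like, 52 B lymphocyte-like, 31 fibroblast-like and 22 choroid plexus-like cells. A further 368 cells stayed unnamed. Of the monocyte-derived macrophage-like cells, 108 were in library 4 and 212 in library 6, with 5 in the other libraries together. Levels are CPM, the UMIs of a gene per 1000000 UMIs summed over the cells of a class, with exact 95% Poisson intervals in parentheses. Intervals cover counting error only, since cells are not replicates.

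Il1a (ENSMUSG00000027399) and Il1b (ENSMUSG00000027398) lie close together on the minus strand of chromosome 2, at chr2:129299610-129309972 and chr2:129364570-129371139 (GRCm38, GENCODE vM21). Il1rn (ENSMUSG00000026981) is on the plus strand of the same chromosome at chr2:24336853-24351494. The receptor genes Il1r2 (ENSMUSG00000026073, chr1:40074079-40125231), Il1r1 (ENSMUSG00000026072, chr1:40225080-40317257) and Il1rl1 (ENSMUSG00000026069, chr1:40429570-40465415) follow each other on the plus strand of chromosome 1. Il1rap (ENSMUSG00000022514) is at chr16:26581704-26730117, Il18 (ENSMUSG00000039217) at chr9:50554827-50581840 and Il33 (ENSMUSG00000024810) at chr19:29925114-29960718, all on the plus strand. Transcripts of the opposite strand overlap Il1a, Il1b, Il1r2, Il1rap and Il18, the last by the genes Bco2 and Tex12, and the 3′ assay keeps the strand. On the same strand Gm37347 overlaps Il1r2 and Gm38070 overlaps Il1r1, and neither is in the count matrix. Strand does not separate these from the members.

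The 250 bases before the RefSeq start (GRCm38.p6) are shown for 5 genes whose RNA the results below compare, namely Il1a and Il1b, which were compared within the same cells, their antagonist Il1rn, and Il33 and Il1rap, which were both high in one oligodendrocyte-like cluster. Il33 has 2 listed starts and both are shown, while of the 3 starts of Il1rn the most upstream is shown. Capitals mark matches, on either strand, to the letters searched: the TATA box TATAAA, the AP-1 motif TGANTCA, the PU.1 motif GAGGAAG, the C/EBP motif TTGCNNAA and an NF-kB motif of GGGA and CC with any 4 bases between them.
Il1a, chr2:129309973-129310222, minus strand: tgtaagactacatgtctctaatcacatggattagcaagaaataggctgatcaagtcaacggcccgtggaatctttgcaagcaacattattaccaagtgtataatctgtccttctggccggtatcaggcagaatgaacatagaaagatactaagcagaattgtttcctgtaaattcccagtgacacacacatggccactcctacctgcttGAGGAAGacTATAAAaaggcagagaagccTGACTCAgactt
Il1b, chr2:129371140-129371389, minus strand: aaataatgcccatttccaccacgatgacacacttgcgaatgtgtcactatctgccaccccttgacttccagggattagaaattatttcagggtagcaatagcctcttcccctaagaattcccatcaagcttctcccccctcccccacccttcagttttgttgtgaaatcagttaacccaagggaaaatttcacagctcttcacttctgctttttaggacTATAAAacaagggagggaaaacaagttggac
Il1rn, chr2:24336610-24336859, plus strand: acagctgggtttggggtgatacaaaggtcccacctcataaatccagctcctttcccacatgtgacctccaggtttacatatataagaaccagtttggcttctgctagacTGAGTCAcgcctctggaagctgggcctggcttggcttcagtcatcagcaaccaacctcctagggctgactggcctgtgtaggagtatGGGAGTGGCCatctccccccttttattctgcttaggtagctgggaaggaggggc
Il1rap, chr16:26581455-26581704, plus strand: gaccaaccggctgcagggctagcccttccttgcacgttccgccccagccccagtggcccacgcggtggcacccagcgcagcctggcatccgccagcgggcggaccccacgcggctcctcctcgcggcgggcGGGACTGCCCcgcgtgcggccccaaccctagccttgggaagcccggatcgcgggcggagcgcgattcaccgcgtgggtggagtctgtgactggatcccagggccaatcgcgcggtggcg
Il33, the upstream start, chr19:29924863-29925112, plus strand: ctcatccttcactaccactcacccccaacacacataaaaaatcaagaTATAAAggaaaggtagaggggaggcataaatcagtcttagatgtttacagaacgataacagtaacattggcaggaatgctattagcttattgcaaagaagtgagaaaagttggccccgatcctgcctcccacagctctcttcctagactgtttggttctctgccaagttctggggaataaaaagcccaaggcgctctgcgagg
Il33, the downstream start, chr19:29945540-29945789, plus strand: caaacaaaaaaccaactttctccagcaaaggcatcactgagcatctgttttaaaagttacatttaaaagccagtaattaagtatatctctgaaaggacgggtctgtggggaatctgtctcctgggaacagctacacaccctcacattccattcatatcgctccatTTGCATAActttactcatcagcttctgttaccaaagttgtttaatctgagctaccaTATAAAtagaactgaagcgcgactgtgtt
The TATA box began 32 bases before the start of Il1a, 31 before that of Il1b and 29 before the downstream start of Il33. The TATA box occurred in 12.4% of all 32851 promoter windows of the same length, the AP-1 motif in 6.75%, the PU.1 motif in 10.6%, the C/EBP motif in 9.56% and the NF-kB motif in 17.6%. The Il1b window held none of the other 4 letter patterns, which says only that these letters are not in this window. The windows of the downstream starts of Il1rn, which are not shown, held none of the letter patterns searched. Reads from the 3′ end do not show which start was used.

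Most members were carried by a few classes, and different members by different ones. Il1b and Il1r2 were highest in neutrophil-like cells, Il1rn in monocyte-derived macrophage-like and neutrophil-like cells, Il1a in microglia-like and macrophage-like cells, Il1r1 in pericyte-like and endothelial-like cells, Il18 in astrocyte-like cells and Il33 in oligodendrocyte-like cells. The leading class was at least 2 times the next class for 4 of the 9 members, Il1b, Il1r2, Il18 and Il33. Among all 14077 genes with at least 100 UMIs in named cells, 28.2% met the same rule.

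**Figure D1:**
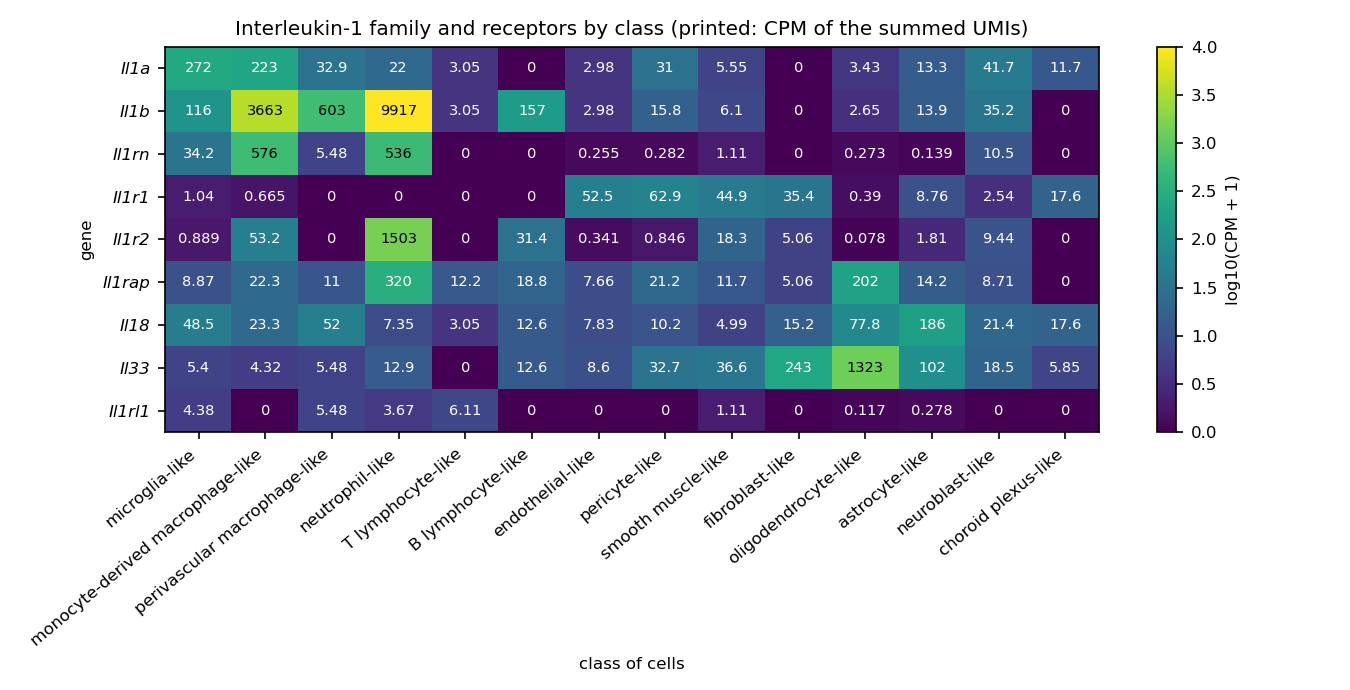
Level of each of the 9 genes (rows) in each of the 14 named classes (columns), coloured by log10(CPM + 1) with the CPM printed in each cell, all libraries together. Il33 reached 1323 CPM in oligodendrocyte-like cells, Il1b 9917 CPM and Il1r2 1503 CPM in neutrophil-like cells, and Il1r1 was highest in the columns of vessel-wall cells.

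Il1a was mainly a microglial transcript. Microglia-like cells held 89.7% of all Il1a UMIs, at 272 CPM (267 to 277), and 40.3% of these cells had at least 1 Il1a UMI against 1.74% of oligodendrocyte-like cells, at median depths of 5150 and 8889 UMIs. By library the microglia-like level of Il1a was 239, 195, 207, 387, 250 and 264 CPM for libraries 1 to 6. Library 4 stood highest, and the other 5 lay within 195 to 264 CPM. Monocyte-derived macrophage-like cells had 223 CPM (206 to 241) of Il1a over all libraries, 384 in library 4 and 147 in library 6. Their order with microglia-like cells was not stable: the ratio of microglia-like to macrophage-like cells was 1.22 (1.13 to 1.32) and turned to 0.748 without library 6. Barcodes of 1 to 50 UMIs, which hold free RNA and debris, had 52.8, 41.9, 120, 168, 101 and 87.3 CPM of Il1a in the 6 libraries, below the microglia-like cells of each library.

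Within the microglia-like class Il1a followed the clusters. The class comprised 2 clusters with microglial genes such as P2ry12, Tmem119 and Gpr34 among their leading genes. In the larger of these, hemoglobin transcripts came ahead of the microglial genes. The rest were a cluster led by Cd83, Ccl4 and Ccl3 (an activation marker and chemokines), a cluster led by Spp1, Lpl and Mmp12, and 63 cells led by interferon-induced genes. Il1a was 54.7 CPM in the cluster with hemoglobin transcripts, 162 in the one led by microglial genes, 442 in the Cd83/Ccl4 cluster and 406 in the Spp1/Lpl cluster. The Cd83/Ccl4 cluster was 8.08 times (7.40 to 8.83) the lowest cluster, and its libraries ran from 330 to 661 CPM, all above the 46.4 to 84.6 CPM of the lowest cluster.

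Il1b, the main secreted ligand, was most concentrated in infiltrating myeloid classes. Neutrophil-like cells had 9917 CPM (9654 to 10185) of Il1b and 90.7% of them had a UMI. In the libraries with at least 20 neutrophil-like cells the level was 13083 in library 3, 11877 in library 4 and 5811 in library 6. Monocyte-derived macrophage-like cells had 3663 CPM (3595 to 3732), 5577 in library 4 and 2764 in library 6. The neutrophil-like level was 2.71 times (2.62 to 2.80) the macrophage-like level, and in libraries 4 and 6, the 2 that held at least 20 cells of both classes, the neutrophil-like value was the higher of the pair. Perivascular macrophage-like cells had 603 CPM from 220 UMIs, of which 74 came from 1 cell.

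Microglia-like cells had far less Il1b per cell but are many. Their level was 116 CPM (113 to 119), and 8.10% of cells had a UMI, or 3.99% after each cell was thinned to 1000 UMIs. By library it was 78.6, 68.1, 71.7, 147, 111 and 200.4 CPM for libraries 1 to 6, so that library 6 was 2.94 times (2.46 to 3.55) library 2. Free RNA barcodes had 28.6, 66.6, 58.2, 378, 47.4 and 326 CPM of Il1b, above the microglia-like level in libraries 4 and 6. Oligodendrocyte-like cells, which are not known as a source of Il1b, had 0, 1.26, 0.491, 7.58, 0.878 and 5.13 CPM in the same libraries. The part of free RNA in the microglia-like difference between libraries was not tested. The Il1b UMIs were uneven among cells, the 82 cells with the most holding 54.3% of those of the class.

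The spread of Il1b between libraries was smaller within a cluster. The Cd83/Ccl4 cluster had 154, 131, 152, 199.5, 171 and 169 CPM of Il1b in libraries 1 to 6. The Spp1/Lpl cluster had 234 CPM in library 4 and 237 in library 6, which held 799 and 615 of its 1462 cells, while libraries 1, 2, 3 and 5 held 2, 7, 25 and 14. Over all libraries Il1b was 12.6 CPM in the cluster with hemoglobin transcripts, 41.5 in the one led by microglial genes, 164 in the Cd83/Ccl4 cluster and 239 in the Spp1/Lpl cluster. Among microglia-like cells, S100a8 or S100a9, which are neutrophil transcripts, had a UMI in 0.938, 3.24, 1.27, 9.29, 0.930 and 5.44% of cells of libraries 1 to 6. Without those cells Il1b was 148 CPM in library 4 and 191 in library 6.

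Il1b was detected more often in microglia-like cells with Il1a than in those without it. Il1b had a UMI in 14.0% of the 3271 cells with Il1a and in 4.10% of the 4855 cells without it, an odds ratio of 3.54 stratified by library. With every cell thinned to 1000 UMIs the shares were 9.15 and 3.02% and the odds ratio 3.05, and a separate random thinning gave 3.46. Cells share their library and cluster, so this is given as a description.

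The sources of all Il1b UMIs differed between libraries. Over all cells 38.6% were in monocyte-derived macrophage-like, 18.9% in neutrophil-like, 18.3% in microglia-like and 22.1% in unnamed cells, the last mostly small leukocyte clusters with markers of more than one class. Microglia-like cells held 53.2, 22.5, 49.4, 14.3, 56.6 and 11.7% of the Il1b UMIs of libraries 1 to 6. Neutrophil-like cells held 70.7% of those of library 2. Macrophage-like cells held 41.7% in library 4 and 49.6% in library 6, and at most 0.983% in each of the others.

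Il1rn, the receptor antagonist, showed the widest range between libraries of the 7 members compared in microglia-like cells. Its level there was 0.683, 0.520, 1.65, 73.4, 0.211 and 87.2 CPM in libraries 1 to 6, from 1, 1, 29, 952, 1 and 555 UMIs. Libraries 4 and 6 were far above the rest, and the intervals of these 2 did not overlap those of the other 4. In the same 6 libraries free RNA barcodes had 0.391, 0.770, 0.719, 48.9, 0.447 and 80.5 CPM of Il1rn. Oligodendrocyte-like cells had at most 1.01 CPM and endothelial-like cells at most 0.671 CPM in any library. The part of free RNA in the microglia-like values was not tested. Of 7 members with enough UMIs in microglia-like cells to compare libraries, 5 had a highest library at least 2 times the lowest (Il1b, Il1rn, Il18, Il33 and Il1rl1), against 42.8% of all 10681 genes compared in the same way.

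**Figure D2:**
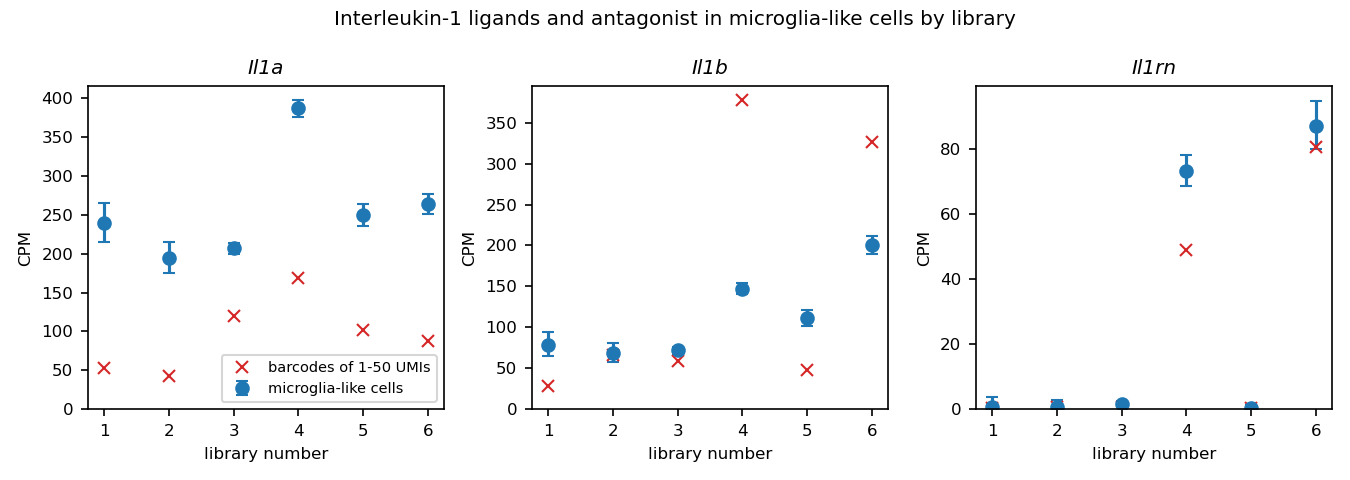
CPM of Il1a, Il1b and Il1rn in microglia-like cells of libraries 1 to 6 (blue points, bars are exact 95% Poisson intervals for counting error) and in barcodes of 1 to 50 UMIs of the same library (red crosses). Il1rn was at most 1.65 CPM in 4 libraries and 73.4 and 87.2 CPM in libraries 4 and 6, and the crosses lie above the points for Il1b in libraries 4 and 6.

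Among the large microglia-like clusters, Il1rn and Il1b were both highest in the Spp1/Lpl cluster, but Il1b was less confined to it. Il1b was 239 CPM there and 164 CPM in the Cd83/Ccl4 cluster. Il1rn had a UMI in 10.0% of the 658 microglia-like cells with Il1b and in 2.46% of the 7468 without it. The odds ratio stratified by library was 2.88, and 2.57 after thinning. Cells share their library and cluster, so these shares are given as a description. In the Spp1/Lpl cluster Il1rn was 135 CPM, 158 in library 4 and 117 in library 6, against 1.08 to 4.35 CPM in the 3 other large microglia-like clusters and 21.2 in the interferon cluster. All 8 microglia markers were at least 2 times the median cluster in the Spp1/Lpl cluster, although none was among its 10 leading genes. Their summed level was 11078 CPM there, below the 25567, 23424 and 17471 CPM of the 3 other large microglia-like clusters. A finer clustering (resolution 1.2) split off 249 of its cells, 150 from library 4 and 99 from library 6, as a cluster that the markers did not name. These 249 cells made up 3.06% of the microglia-like class and held 73.9% of its Il1rn UMIs, at 576 CPM (543 to 611). In library 4 they had 657 CPM of Il1rn and in library 6 they had 471 CPM. The remaining cells of the Spp1/Lpl cluster had 35.9 CPM of Il1rn, below the 48.9 and 80.5 CPM of free RNA barcodes in libraries 4 and 6.

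The same 249 cells had less Il1b than the rest of their cluster, low P2ry12 and Tmem119, and next to no Ccr2, Arg1 or Plac8. Their Il1b was 106 CPM (92.0 to 121), against 269 CPM (259 to 281) in the rest of the Spp1/Lpl cluster and 3663 CPM in macrophage-like cells, whose Il1rn of 576 CPM was at the same level. Free RNA barcodes had 378 and 326 CPM of Il1b in libraries 4 and 6, above the 106 and 269 CPM. The part of free RNA in these Il1b values was not tested. P2ry12 and Tmem119, which define resting microglia, were at 39.5 and 66.9 CPM, against 2258 and 1725 CPM in microglia-like cells outside the cluster. Ccr2, Arg1 and Plac8, which mark monocytes and the macrophages derived from them, were at 1.52, 1.52 and 0.507 CPM, against 370, 1203 and 992 CPM in macrophage-like cells. Cx3cr1, a further microglia marker, was at 945 CPM, between 59.5 CPM in macrophage-like cells and 3417 CPM in the microglia-like class as a whole.

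**Figure D3:**
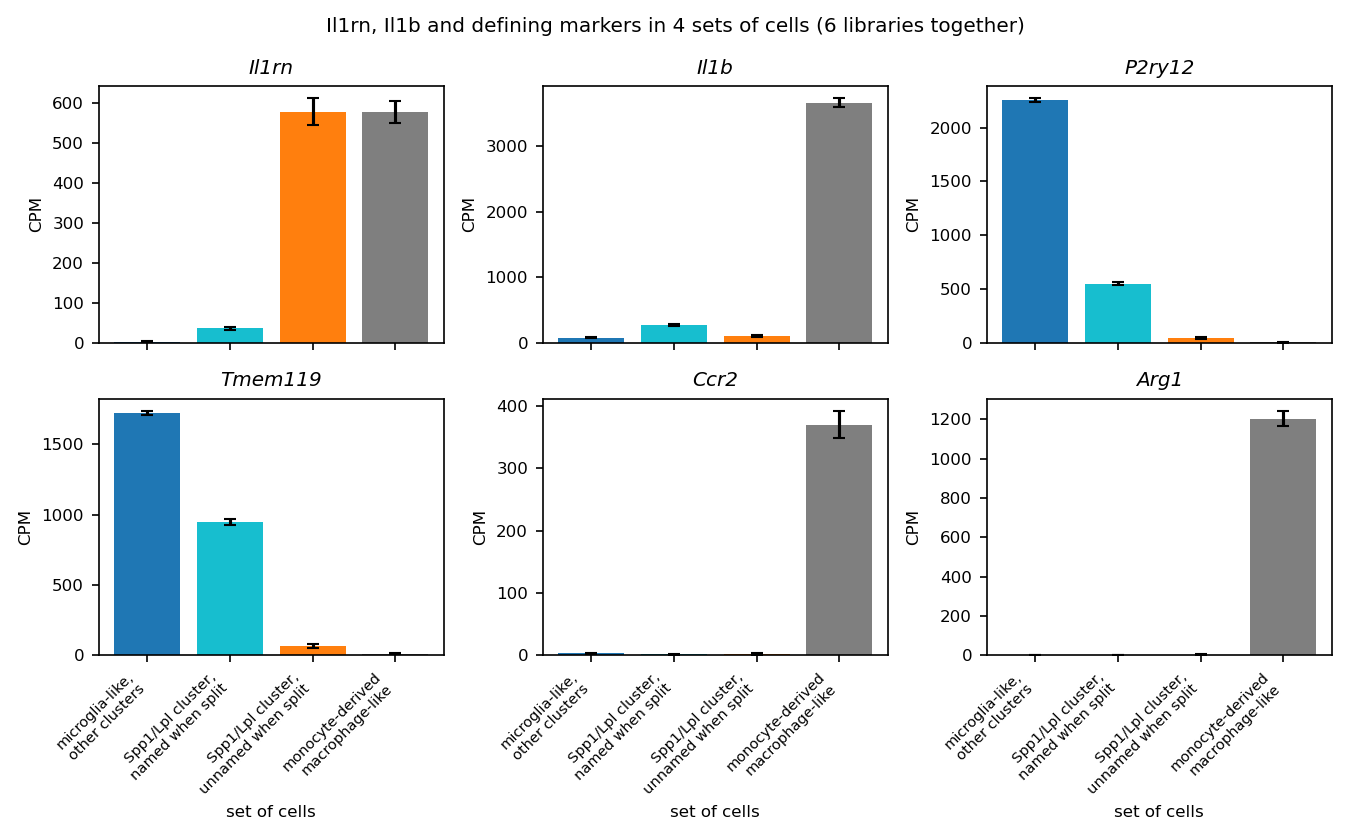
CPM of Il1rn, Il1b, the microglia markers P2ry12 and Tmem119 and the monocyte and macrophage markers Ccr2 and Arg1 in 4 sets of cells, all libraries together (bars, with exact 95% Poisson intervals for counting error). Il1rn was 576 CPM both in the cells of the Spp1/Lpl cluster that were unnamed when it was split (orange) and in macrophage-like cells (grey), whereas Il1b, Ccr2 and Arg1 were high in the latter alone.

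The ratio of antagonist to ligand UMIs summarised this. In microglia-like cells there were 0.295 Il1rn UMIs per Il1b UMI (0.279 to 0.313), and by library 0.00870, 0.00763, 0.0231, 0.499, 0.00190 and 0.435. Macrophage-like cells had 0.0797 in library 4 and 0.238 in library 6. Neutrophil-like cells had 0.0111, 0.0485 and 0.160 in libraries 3, 4 and 6. According to the labels, the kit version differed between times (v3 with single index at 1 and 24 h, v3.1 with dual index at 12 h). The study's methods give v3.1 alone, and name a NovaSeq sequencer for 1 and 12 h and a HiSeq for 24 h. Neither difference can be told apart from the libraries. Without the Spp1/Lpl cluster the microglia-like ratio was 0.0329, and with the 249 cells unnamed, at resolution 1.2, it was 0.0803.

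Neutrophil-like cells fell into a larger and a smaller cluster that differed in the antagonist. The larger, of 107 cells, had 273 CPM of Il1rn and 11293 CPM of Il1b, and the smaller, of 55 cells, had 1116 CPM of Il1rn and 6893 CPM of Il1b. Il1rn in the larger was 0.244 times (0.190 to 0.313) that in the smaller. The clusters drew on the libraries unequally, the larger with 58 of its cells from library 4 and 13 from library 6, the smaller with 23 and 27. Within library 4 Il1rn was 309 CPM (239 to 394) in the larger and 1363 CPM (1105 to 1662) in the smaller, and within library 6 it was 510 CPM (307 to 797) and 1113 CPM (898 to 1363). Il1b was 12141 and 11097 CPM in library 4 and 11094 and 3457 CPM in library 6. Among macrophage-like clusters, the one with Arg1 and Spp1 among its leading genes had 1065 CPM of Il1rn, the one led by Cxcl2 had 511 CPM and the one led by Lyz2 and class II genes had 79.1 CPM, while Il1b was 2373, 4595 and 2935 CPM in the same order.

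Il1r1, the signalling receptor, was a transcript of the vessel wall. Pericyte-like cells had 62.9 CPM (54.9 to 71.7), endothelial-like 52.5 CPM (48.5 to 56.9), smooth muscle-like 44.9 CPM (35.7 to 55.9) and fibroblast-like cells 35.4 CPM. The library values of pericyte-, endothelial- and smooth muscle-like cells overlapped from each to the next, and no library held 20 fibroblast-like cells. Endothelial-like cells held 57.0% of all Il1r1 UMIs and pericyte-like cells 20.6%. Microglia-like cells had 1.04 CPM of Il1r1, astrocyte-like cells 8.76 CPM, and no UMI was found in 162 neutrophil-like cells, a count of 0 that allows UMIs in up to 1.85% of such cells and a level of up to 5.51 CPM, and sets no limit on cells expressing the gene. Endothelial-like cells had 56.6, 43.0, 45.4, 34.8, 81.4 and 45.6 CPM in libraries 1 to 6. Library 5 was highest and library 4 lowest, a 2.34-fold range. Il1r1 and Il33 were the 2 members with enough UMIs to compare libraries in endothelial-like cells, and both passed 2-fold, as did 45.3% of all 8516 genes compared.

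Among endothelial-like cells Il1r1 was higher in every library in those with Slc38a5 or Vwf, both listed here as venous markers, while markers of the other zones were mixed. Cells with a UMI of Slc38a5, an amino acid transporter of venous and capillary endothelium, had 119, 104, 113, 85.2, 172 and 90.7 CPM of Il1r1 in libraries 1 to 6. Cells without Slc38a5 had 21.4, 7.55, 20.2, 19.9, 13.5 and 19.6 CPM. The 2 sets of values did not overlap, and over all libraries the ratio was 6.71 (5.55 to 8.15) for 809 against 1860 cells, whose median depths were 4276 and 3839.5 UMIs.

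The 3 other venous markers and Vwf also went with higher Il1r1. Cells with Vwf, the gene of von Willebrand factor, had 6.42 times (5.20 to 7.99) the Il1r1 of cells without it, and cells with Nr2f2, a transcription factor of venous identity, 7.44 times (6.33 to 8.75). The 53 cells with Ackr1, a chemokine-binding receptor of venules, had 337 CPM of Il1r1, and 33 of them were in library 6. For Tmem252, found in 1845 cells, the ratio was 2.52 (1.99 to 3.24). Cells with Sema3g, an arterial marker, had 10.4 CPM of Il1r1 against 65.1 CPM in cells without it, and were lower in all 6 libraries. Il1r1 was also lower in cells with the arterial markers Gkn3, Bmx or Efnb2, at 0.356, 0.611 and 0.228 times, but not in the 159 with Vegfc, at 64.5 against 51.4 CPM or 1.25 times (0.953 to 1.63), where it was higher in 3 of the 4 libraries with at least 20 such cells. Of the capillary markers, cells with Mfsd2a, Spock2, Rgcc or Cxcl12 had 0.407 to 0.765 times the Il1r1 of cells without, whereas those with Slc16a1 had 70.5 against 35.9 CPM (interval of the ratio 1.66 to 2.33) and were higher in 5 of 6 libraries. The endothelial-like cluster with arterial markers, led by Mgp and Gkn3 among others, had 9.85 CPM of Il1r1, and the largest endothelial-like cluster 46.1 CPM. In the same order Slc38a5 was 5.91 and 190 CPM and Nr2f2 6.57 and 37.5 CPM, and Ackr1 had no UMI in either. Vwf was 187 and 134 CPM and Tmem252 525 and 560 CPM, so these venous markers were not particular to venous cells here. Slc38a5 was 199 CPM in the endothelial-like cluster that held Ackr1, close to the 190 CPM of the largest one. Over all libraries Slc38a5 therefore did not set these clusters apart.

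One endothelial-like cluster, with Tmem252 and Lcn2 among its leading genes, had 93.7 CPM of Il1r1 over all libraries, but its libraries were unlike. It had 391, 420.1, 431 and 665 CPM of Il1r1 in libraries 1, 2, 3 and 5, from 2, 7, 17 and 11 cells. In libraries 4 and 6, with 179 and 322 cells, it had 56.9 and 53.2 CPM. Slc38a5 in the same cluster was 489, 420.1, 534, 130, 565 and 186 CPM in libraries 1 to 6, lower in the same 2 libraries. Vwf was also lowest in these 2 libraries, at 263 and 431 CPM, but other venous markers were not. Ackr1 was 0, 0, 277, 92.4, 244 and 299 CPM in libraries 1 to 6. Tmem252 was 3029, 7393, 2948, 3890, 953 and 1828 CPM. The cells that the cluster gathers in libraries 4 and 6 thus had less Slc38a5 and Vwf, but not less of every venous marker. The part of this in the Il1r1 values was not tested.

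Pericyte-like cells also comprised a cluster with high Il1r1. Their level was 43.6, 44.2, 51.0, 83.1, 42.7 and 102 CPM in libraries 1 to 6. The larger pericyte-like cluster of 823 cells had between 30.1 and 51.0 CPM of Il1r1 in the 6 libraries, with library 6 at 30.1 CPM. A cluster of 66 cells led by Il11, 30 of library 4 and 36 of library 6, had 178 CPM (121 to 253) and 215 CPM (157 to 288) of Il1r1. Over all libraries this cluster was 4.27 times (3.19 to 5.66) the larger one. Without it, endothelial-like cells were 1.13 times (0.943 to 1.36) the pericyte-like level, whereas with it they were 0.836 times (0.716 to 0.978).

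**Figure D4:**
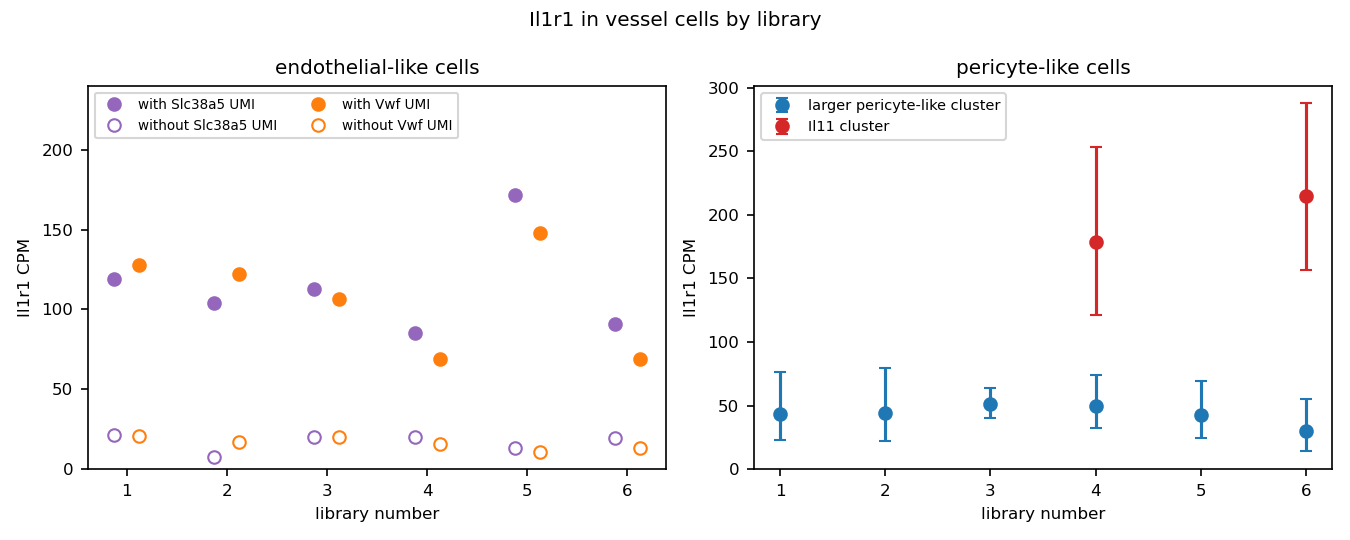
Il1r1 CPM by library number. Left, endothelial-like cells with (filled) and without (open) a UMI of Slc38a5 or Vwf. The filled points, from 68.8 to 172 CPM, lie above all open points, from 7.55 to 21.4 CPM. Right, the 2 pericyte-like clusters with exact 95% Poisson intervals for counting error. The Il11 cluster was present in libraries 4 and 6 at 178 and 215 CPM.

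Il1r2, the decoy receptor, was a neutrophil transcript. Neutrophil-like cells had 1503 CPM (1402 to 1609), with 1512 in library 3, 1582 in library 4 and 1589 in library 6, and 88.3% of them had a UMI. The counting intervals of these 3 libraries overlapped. The next class, macrophage-like cells, had 53.2 CPM, and the neutrophil-like level was 28.3 times (23.8 to 33.7) as high. Neutrophil-like cells held 74.0% of the Il1r2 UMIs of named cells and 46.0% of those of all cells, since unnamed cells held 37.9%. Among the unnamed clusters, one of 120 cells led by Cd74 and other class II genes had 371 CPM of Il1r2. Microglia-like cells had 0.889 CPM.

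Il1rap, the shared accessory protein, was not highest where Il1r1 was. Oligodendrocyte-like cells held 83.6% of its UMIs at 202 CPM (197 to 208), and 75.0% of these cells had a UMI. By library their level was 172, 146, 217, 245, 203 and 219.9 CPM, which is within 1.68-fold. Neutrophil-like cells had a higher level of 320 CPM (274 to 371) from 174 UMIs, with 625 in library 3, 345 in library 4 and 248 in library 6. Endothelial-like cells had 7.66 CPM (6.16 to 9.42) and pericyte-like cells 21.2 CPM. Free RNA barcodes had 71.6, 82.7, 73.3, 115, 165 and 153 CPM of Il1rap in libraries 1 to 6, above both of these levels. The part of free RNA in the endothelial-like and pericyte-like values was not tested. Of 291 endothelial-like cells with an Il1r1 UMI, 5 also had one of Il1rap, or 1.72% (0.560 to 3.96), against 76 of the 2378 without Il1r1. At this depth an absent UMI does not show that a cell lacks the transcript.

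Il33 was the most abundant member over all cells and was a transcript of oligodendrocyte-like cells, which held 95.8% of 35421 Il33 UMIs. Their level was 1323 CPM (1309 to 1337), and 91.3% of them had a UMI. Fibroblast-like cells followed with 243 CPM (179 to 322) from 31 cells, then astrocyte-like cells with 102 CPM (95.0 to 110.0). Free RNA barcodes had 403, 488, 311, 625, 463 and 687 CPM of Il33 in libraries 1 to 6, above both of these levels. Microglia-like cells had 5.40 CPM and endothelial-like cells 8.60 CPM. The part of free RNA in the fibroblast-like and astrocyte-like values was not tested. The ratio to fibroblast-like cells was 5.45 (4.11 to 7.39), and 10.1 without library 6. Oligodendrocyte-like cells were 12.9 times (12.0 to 13.9) astrocyte-like cells, and above them in all 6 libraries. By library the oligodendrocyte-like level was 1010, 978, 1020.0, 1939, 1269 and 1869 CPM, with libraries 4 and 6 highest and a range of 1.98-fold. Of the 3 members with enough UMIs to compare libraries in oligodendrocyte-like cells, Il1rap, Il18 and Il33, none reached 2-fold, against 28.2% of 9701 genes.

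The difference between libraries in Il33 lay largely in one cluster. A cluster of 136 oligodendrocyte-like cells, 90 from library 4 and 46 from library 6 and none from the others, had Il33 and Serpina3n, a serine protease inhibitor of reactive glia, among its leading genes, although Il33 took no part in the clustering. It had 5453 CPM of Il33 in library 4 and 4637 CPM in library 6. The largest oligodendrocyte-like cluster had 1194, 1114, 1097, 1401, 1433 and 1496 CPM in libraries 1 to 6, and a cluster with Apod, a lipid carrier, had between 311 and 401 CPM. The 136 cells were 4.18 times (4.07 to 4.29) the largest cluster in Il33 and 14.3 times (13.4 to 15.2) the Apod cluster. Without them oligodendrocyte-like cells were 10.8 times astrocyte-like cells.

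Il1rap was also higher in these 136 cells and Il18 was lower. Il1rap was 465 CPM in library 4 and 355 CPM in library 6, against 212 and 202 CPM in the largest cluster of the same libraries, and over all libraries 2.18 times (1.99 to 2.38) that cluster. Il18 was 42.8 CPM against 77.6 CPM, or 0.551 times (0.417 to 0.717). Nearly all oligodendrocyte-like cells had Il33, and among the 2574 with a UMI of it Il1rap was found in 75.3% (73.6 to 77.0), against 71.0% (64.9 to 76.6) of the 245 without. After thinning to 1000 UMIs these shares were 18.8 and 16.4%.

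**Figure D5:**
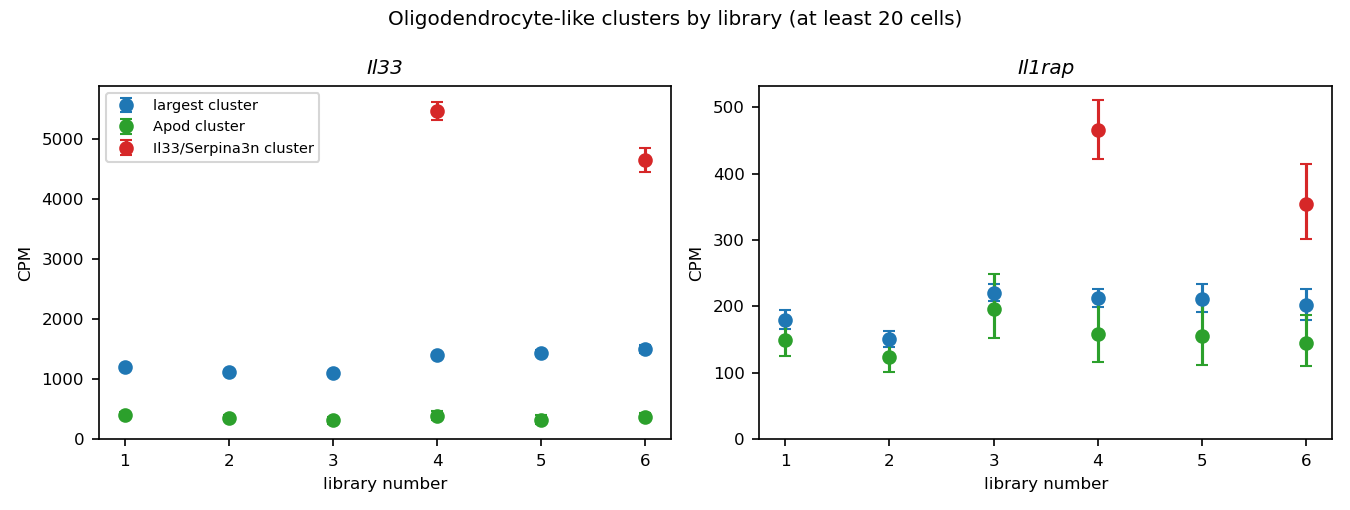
CPM of Il33 (left) and Il1rap (right) in 3 oligodendrocyte-like clusters by library number, where a library held at least 20 cells of the cluster (bars are exact 95% Poisson intervals for counting error). The Il33/Serpina3n cluster (red) was present in libraries 4 and 6, at 5453 and 4637 CPM of Il33, and lies above the largest cluster (blue) and the Apod cluster (green) for both genes.

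Il1rl1, the receptor of Il33, was close to the limit of detection. It had 236 UMIs in all cells, of which microglia-like cells held 83.5%, at 4.38 CPM (3.79 to 5.03), with a UMI in 2.14% of cells. By library that level was 9.56, 6.24, 3.94, 4.86, 3.79 and 3.30 CPM. Free RNA barcodes had 0.391 to 2.09 CPM of Il1rl1. Oligodendrocyte-like cells, the class with most Il33, had 3 UMIs in 2819 cells. No UMI was found in 2669 endothelial-like cells, a count of 0 that allows UMIs in up to 0.112% of such cells and up to 0.255 CPM, nor in 889 pericyte-like cells, where these limits are 0.337% and 0.846 CPM. They do not bound the share of cells expressing the gene. T lymphocyte-like cells had 6.11 CPM from 2 UMIs of a single cell, so no order of classes can be read for this gene.

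Il18 was highest in astrocyte-like cells and, unlike Il1a and Il1b, was spread over many cells at few UMIs each. Astrocyte-like cells had 186 CPM (176 to 196), with 218, 218, 195, 143, 298 and 177 CPM in libraries 1 to 6, and 59.6% of cells had a UMI. Oligodendrocyte-like cells had 77.8 CPM (74.5 to 81.3), between 65.2 and 83.9 CPM in the 6 libraries, so that the library values of the 2 classes did not overlap. The ratio was 2.39 (2.23 to 2.56). Microglia-like cells had 48.5 CPM (46.5 to 50.6), with 74.5, 56.2, 54.5, 41.0, 56.5 and 33.1 CPM, and, being the largest class, held 37.0% of all Il18 UMIs. Free RNA barcodes had 104, 82.3, 92.7, 67.9, 63.0 and 55.0 CPM of Il18, above the microglia-like level in every library. Endothelial-like cells had 7.83 CPM. The part of free RNA in the microglia-like values of Il18, including those by cluster, was not tested. In the Spp1/Lpl cluster of microglia-like cells, where Il1a and Il1b were high, Il18 was 25.3 CPM, 0.421 times (0.365 to 0.485) the cluster led by Gpr34 and P2ry12. In library 4 the 2 clusters had 24.4 and 56.8 CPM of Il18 and in library 6 they had 25.9 and 56.1 CPM.

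The genes whose levels over the 14 classes were most like those of each member were found by Pearson's r of log2(CPM + 1) over 14 points that share libraries. For Il1a these were Havcr2 (r = 0.939), Cd68 and E230029C05Rik. For Il1b they were Pirb (r = 0.982), Nlrp3 and Csf2rb, and for Il1rn they were Fgr (r = 0.955), Pilra and C130050O18Rik. Il1r1 was closest to 9530026P05Rik (r = 0.982), Tm4sf1 and Il17rc, and Il1r2 to Trem3 (r = 0.914), Lilra6 and Acod1. Il1rap was closest to Gm39121 (r = 0.865), Atg3 and Rhog, Il18 to Rab3gap2 (r = 0.886), 1700081N11Rik and Arl8a, and Il33 to Efnb3 (r = 0.928), Smco3 and Fhdc1. For Il1rl1 they were Phldb3 (r = 0.874), Arhgap27os3 and 4933406P04Rik, on few UMIs.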

How the data were processed

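Single-cell suspensions were profiled with the 10x 3′ assay. The authors deposited UMI counts per gene and barcode as 1 unfiltered matrix made with Cell Ranger (5.0.1 in the matrix header) on mm10, which pools 6 libraries. Here, barcodes with at least 200 genes and at most 10% mitochondrial UMIs were kept where their depth reached 0.1 times a reference depth, which was the percentile numbered 99 among the 3000 deepest barcodes in the library, which left 17357 cells of 22913 barcodes with at least 200 genes (the 200-gene and 10% limits alone left 19864). Libraries held 12427757 to 40793772 UMIs over all barcodes.

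Counts were scaled to 10000 UMIs per cell and log-transformed. The 2000 most variable genes, 30 principal components (15 for 962 re-clustered leukocytes) and 20 neighbours entered Leiden clustering at resolution 0.8, with the 9 members and 44 pathway genes left out. A cluster was named, as "-like", where at least 3 markers of 1 of 19 lists were raised and no other list came close. Simulated doublets marked 0.731 to 2.83% of cells per library, and these cells were kept in the values as reported. Shares of cells were also computed after thinning to 1000 UMIs. Barcodes of 1 to 50 UMIs gave free RNA.

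With 1 library per group and no map from library number to group, no test between groups was made. Intervals are exact 95% Poisson, Clopper-Pearson or conditional intervals for counting error, and a count of 0 was read as allowing 3 counts. The scripts were tested on simulated data. The members and lists were chosen with earlier results of these data known. Genes named are the 9 members, per member the 3 genes of highest r, the 3 highest genes of each pathway group, and genes that mark or lead clusters. Other pathway genes were added after their values were seen, as stated where they are named. The reclustered cells of high Il1rn, the split of endothelial-like cells by zone markers and the Il11, Spp1/Lpl and Il33/Serpina3n clusters were singled out after their values were seen. Mouse Il36 genes carry their older symbols (Il1f5, Il1f6, Il1f8 and Il1f9) in the matrix. Alternatives were other filters, doublets removed, resolutions of 0.4 and 1.2, each library left out, the top cell left out and means of the cells' own CPM. Clustering used leidenalg 0.10.2 with igraph 0.11.9 and scikit-learn 1.9.0, doublet thresholds scikit-image 0.26.0, intervals scipy 1.17.1, tables numpy 2.4.6 with pandas 2.3.3, and plots matplotlib 3.10.9, all under Python 3.11.15.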

Additional observations from a re-analysis of the deposited data

How the results depend on the processing

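Il1b, Il1r2, Il18 and Il33 had a leading class at least 2 times the next under every alternative run, and Il1rl1 joined them, for 5 in all, with means of the cells' own CPM. Il1b in microglia-like cells, highest to lowest library, was 2.94, from 2.16 (without library 6) to 2.94 with a library left out, 3.12 at resolution 1.2 and 3.21 as a mean of the cells' own CPM, then of library 6 to library 1. The ranges that follow are also those with 1 library left out. Il1r1 in endothelial-like cells against the highest other class, pericyte-like cells, was 0.836, ranged from 0.671 (without library 5) to 0.962 (without library 4), and was 0.708 as a mean of the cells' own CPM and 1.13 without the Il11 pericyte-like cluster. Without library 6 the highest other class was fibroblast-like, at 0.872, and pericyte-like cells were 1.02 times (0.849 to 1.22) endothelial-like cells. Il33 in oligodendrocyte-like against astrocyte-like cells was 12.9, ranged from 10.5 (without library 4) to 14.6 (without library 1), and was 14.7 with doublets removed, 15.4 as a mean of the cells' own CPM and 10.8 without the Il33/Serpina3n cluster. Il1rn per Il1b UMI in microglia-like cells was 0.295, ranged from 0.178 (without library 4) to 0.382 (without library 3), and was 0.0803 at resolution 1.2, where 249 cells lose their name, and 0.0329 without the Spp1/Lpl cluster. The share of Il1r2 UMIs in neutrophil-like cells was 74.0%, ranged from 64.4 (without library 4) to 84.5% (without library 6), and was 70.1% at resolution 0.4 and 46.0% with unnamed cells counted. The odds ratio of Il1a and Il1b ranged from 3.41 to 3.86 with a library left out. The order of classes turned for Il1a between microglia-like and macrophage-like cells (0.748 without library 6 to 1.57 without library 4), for Il1rn between macrophage-like and neutrophil-like cells (0.984 without library 3 to 1.30 without library 4), and for Il1rl1 between T lymphocyte-like and perivascular macrophage-like cells (0.952 without library 5 to 1.45 without library 6, 0.648 under the study's 2 filters, 0.401 as a mean of the cells' own CPM and 0 without the top cell, which held both T lymphocyte-like UMIs). The cause of the other changes was not tested. The alternatives that leave out a cluster or cells with S100a8 or S100a9, or count unnamed cells, were chosen after seeing the data. No paired analysis was possible because each group has 1 library and the library numbers carry no group.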

Other observations

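The rest of the pathway was examined in 44 genes. Of 6 other ligands and antagonists, 2 had at least 100 UMIs and 1 of them had a leading class at least 2 times the next, against 28.2% of all genes. That gene was Il1f9, an interleukin-36 ligand, at 472 CPM (416 to 534) in neutrophil-like cells, with 189 CPM in library 3, 309 in library 4 and 1175 in library 6. Il18bp, which binds interleukin-18, was 15.2 CPM (3.13 to 44.3) in fibroblast-like cells. That interval holds the 12.9 CPM of neutrophil-like and the 9.11 CPM of endothelial-like cells, so no leading class can be read. Il1f6 had 2 UMIs. The genes named below are the 3 highest of each group, and others that met the rule, with Ctsg and Elane, were added after their values were seen. Of 6 other receptors, 4 had enough UMIs and 2 met the rule (28.2% of all genes did). These were Il18rap, a chain of the interleukin-18 receptor, at 119 CPM in neutrophil-like cells, 4.35 times the next class, and Il1rl2, the interleukin-36 receptor, at 13.2 CPM in microglia-like cells, 2.17 times. Il18r1, the other chain of the interleukin-18 receptor, had too few UMIs and was 79.4 CPM in T lymphocyte-like cells from 65 cells. Sigirr, an inhibitory receptor of the family, was 69.1 CPM in endothelial-like cells, between 66.6 and 73.3 CPM in the 6 libraries, and did not meet the rule (1.62 times).

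Of 10 processing genes, 7 had enough UMIs and 3 met the rule (28.2% of all genes did). These were Nlrp3, an inflammasome sensor, at 724 CPM in neutrophil-like cells (2.15 times the next class), Aim2, a sensor of DNA, at 99.4 CPM in microglia-like cells (2.27 times), and Prtn3, a serine protease, at 58.1 CPM in neuroblast-like cells (3.07 times). Pycard, the adaptor, at 287 CPM in microglia-like cells and Casp4, an inflammatory caspase, at 145 CPM in perivascular macrophage-like cells did not. Ctsg and Elane, also serine proteases, had too few UMIs. Among named classes they were found in neuroblast-like cells alone, at 31.9 and 20.7 CPM. That class also had 213 CPM of S100a8 and 340 CPM of S100a9. Whether myeloid cells within the neuroblast-like class carry Prtn3 was not tested. Of 14 signalling genes, 14 had enough UMIs and 1 met the rule (28.2% of all genes did). This was Tab1, at 44.0 CPM in pericyte-like cells (2.05 times). The 3 highest did not, namely Ikbkb at 169 CPM in B lymphocyte-like cells, Nfkb1 at 145 CPM in perivascular macrophage-like cells and Tab2 at 139 CPM in microglia-like cells. The last group lists 8 genes known as induced by interleukin-1 in vessel walls, and their induction was not measured here. Of these, 8 had enough UMIs and 4 met the rule (28.2% of all genes did), namely Sele, Icam1, Vcam1 and Lcn2. They were led by endothelial-like, microglia-like, perivascular macrophage-like and neutrophil-like cells at 12.5, 305, 1101 and 4754 CPM. Lcn2 is an iron-carrier binding protein and the others are adhesion molecules. Ccl2, a monocyte chemokine, was 3399 CPM in fibroblast-like and 2827 CPM in perivascular macrophage-like cells and did not meet the rule. In pericyte-like cells Ccl2 was 7.27, 165, 37.0, 1179, 8.01 and 737 CPM in libraries 1 to 6, highest in the 2 libraries that held the Il11 cluster. In endothelial-like cells Lcn2 was 13.7, 38.2, 513, 713, 36.6 and 292 CPM. The value of library 3 rested on few cells. There 17 cells of the cluster with Tmem252 and Lcn2 among its leading genes held 1323 Lcn2 UMIs, at 13589 CPM. The 590 cells of the largest endothelial-like cluster had 76.2 CPM in that library. The library values of Ccl2 and Lcn2 were chosen after they were seen.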
